A study of Mus musculus with 11 samples.

Results

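The comparison described here is the addition of FICZ to monocyte cultures that already received the Notch ligand Jag1. Bone marrow monocytes of the mouse were cultured for 6 days with GM-CSF (20 ng/ml), TGFb (5 ng/ml), IL-34 (8 µg/ml) and Jag1, the latter supplied by OP9 cells, a stromal line made to carry it. The 3 TGFb/IL-34/Jag1/FICZ samples received FICZ in addition and the 3 TGFb/IL-34/Jag1 samples did not. Below these groups are called Jag1/FICZ and Jag1. CD11b-low EpCAM+ cells were sorted from each culture and their RNA sequenced in bulk. Samples of the same number in both groups carried the same experiment code. The other samples of the series were 2 TGFb/IL-34, 2 TGFb/IL-34/FICZ and 1 Jag1 only (GM-CSF and Jag1 without TGFb, IL-34 or FICZ). Marrow cultures used male and female mice, and neither the sex per sample nor the dose of FICZ, the strain or the age of the donor mice of these cultures is given in the sources used here. The labels name OP9 co-culture as the cell type of all 11 samples, those without Jag1 included. They do not say whether replicates came from separate mice, so p-values measure the spread between these samples. The genes described reached a value of 10 or more in 2 or more of the 11 samples. There were 13095 of them, of 21860 in the table. The samples given FICZ counted toward this filter, so a gene high only with FICZ could pass through them.

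Langerhans cells are phagocytes of the epidermis that carry the adhesion molecule EpCAM and the lectin langerin. Monocytes given TGFb and IL-34, the epidermal ligand of the Csf1 receptor, can turn into similar cells (mLC-like cells). FICZ is a tryptophan photoproduct and a ligand of the aryl hydrocarbon receptor (Ahr). The study names it an Ahr agonist, whereas the deposited description of the design has antagonist. A ligand moves Ahr from the cytoplasm to the nucleus, where it pairs with Arnt, binds response elements and switches on cytochrome P450 genes and its own repressor, Ahrr. The comparison asks what engaging Ahr does to cells under Notch and TGFb signals.

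Values are given as normalized counts, scaled by the authors, with totals of 21.6 to 23.4 M in the 6 samples. Spacing of low values put 1 read at 0.915 to 1.14 normalized counts, so a value of 0 allows up to 3 reads (2.75 to 3.41 normalized counts, counting error only). The pan-myeloid list (Ptprc, Spi1, Tyrobp and 5 others) summed to 59139 to 70733 normalized counts in Jag1 and 70799 to 72289 in Jag1/FICZ. Epcam, the gene of the sorted surface marker, stood at 11190.1 ± 3425 without FICZ and 7604 ± 1523 with it (mean ± SD, n = 3 each; limma, adjusted p = 0.203). Of the stromal list 21 of 25 genes were tested and none was at 0 throughout a group. With FICZ 5 were called higher (23.8%, against 10.9% of all tested genes), and 2 without Jag1 replicate 1 or 3. Its member Jag1, the gene of the supplied ligand, stood at 312 ± 115 without FICZ and 944 ± 429.9 with it, and its call was lost without Jag1 replicate 1 or 3 or Jag1/FICZ replicate 2 or 3 (adjusted p = 0.0667 to 0.0852). Most of its sum in Jag1/FICZ came from Thy1, a surface protein that lymphoid cells and fibroblasts also carry. Without Thy1 the other 20 stromal genes summed to 782 to 2046 in Jag1 and 1787 to 7698 in Jag1/FICZ, ranges that overlap. Within each of the 3 same-numbered pairs this sum was higher with FICZ, at 1787, 3424 and 7698 against 1192, 2046 and 782. The part of stromal RNA in the results was not tested. Of the 6 libraries, only Jag1/FICZ replicate 1 was labelled with another flow cell. The library names of all 3 Jag1 samples and of Jag1/FICZ replicate 2 ended in L3. Those of Jag1/FICZ replicates 1 and 3 did not, so this ending ran largely with the treatment. Its part in the results was not tested. In bulk RNA, more cells of a kind and more RNA per cell cannot be told apart.

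FICZ changed 2312 of 13095 genes at an adjusted p of 0.05 (limma, Benjamini-Hochberg), 17.7% of those tested. There were 1433 higher (10.9%) and 879 lower (6.71%). The counts of the gene lists below stand against these shares. The lists were chosen with earlier results of these data known, so their counts describe and do not test. All 2312 moved in 1 direction in each of the 3 same-numbered pairs, and in 2306 the groups did not overlap. The call was made on these same samples, so both counts follow largely from it and are no separate evidence. Rises were larger than falls, with a median log2 fold change of 1.93 among genes called higher and -1.24 among genes called lower, while the median over all tested genes was -0.01. A log2 fold change of 3 or more was reached by 374 of the higher genes, and one of -3 or less by 117 of the lower genes. Log2 changes, given ± SE (n = 3 against 3), are taken on log2(normalized count + 1). Near 0 this scale understates a change and depends on the added 1. With the replicate number as a block and only these 6 samples the count was 4171 (2258 higher, 1913 lower). It was 1479 without Jag1/FICZ replicate 1 and 1387 without Jag1/FICZ replicate 2. Protein-coding genes made up 1433 of the higher and 877 of the lower genes.

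**Figure D1:**
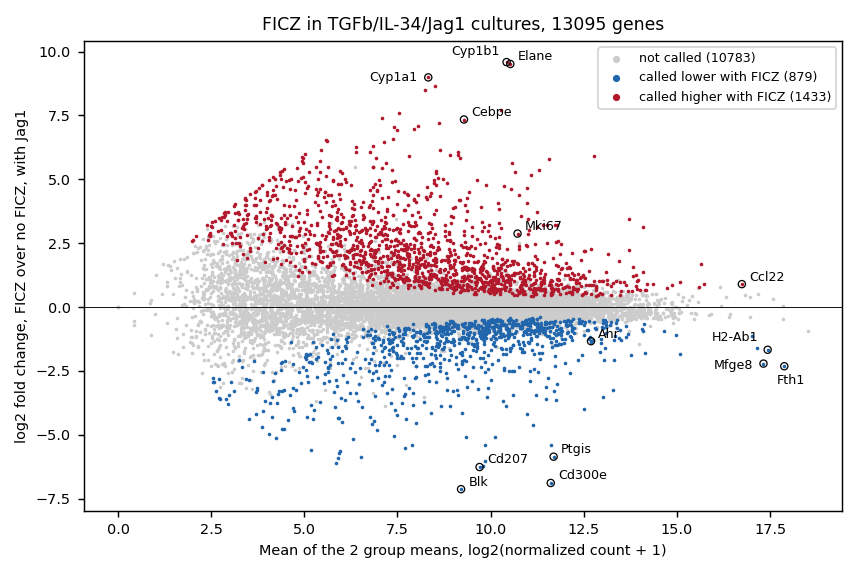
Each point is 1 of 13095 genes, with the mean of both group means on the horizontal axis (log2 of the normalized count + 1) and the log2 fold change with FICZ in Jag1 cultures on the vertical axis. Red points (1433) were called higher and blue points (879) lower. The highest rises include Cyp1b1, Elane and Cyp1a1, and among the most abundant genes at the right edge Fth1, Mfge8 and H2-Ab1 lie below 0.

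The Ahr list held 2 of the 3 largest rises of the whole comparison. Of its 10 tested genes 5 were called higher and 1 lower (medians 0.65 in the list and -0.01 over all genes). Cyp1b1 (ENSMUSG00000024087, chromosome 17, 80008966 to 80022532, minus strand, GRCm39) encodes a cytochrome P450 that oxidizes hormones and aromatic compounds. It stood at 2868, 2996 and 2384 normalized counts in Jag1/FICZ replicates 1 to 3 and at 1.04, 4.76 and 2.80 in Jag1, a separation with no overlap (log2 change 9.59 ± 0.37, adjusted p = 8.66e-07). Cyp1a1 (ENSMUSG00000032315, chromosome 9, 57595211 to 57611107, plus strand), the enzyme that also degrades FICZ, was measured at 644, 671 and 604 with FICZ and at 0, 0 and 0.985 without, so 2 of the Jag1 libraries were listed at 0 (log2 change 8.99 ± 0.35, adjusted p = 8.66e-07). Cultures without Jag1 were not at this low level. Cyp1b1 read 2570.2 and 2556 in TGFb/IL-34 and 3780.1 and 7391 in TGFb/IL-34/FICZ, and Cyp1a1 read 68.1 and 100.1 and 2079 and 1933.

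Nqo1, a quinone reductase that both Ahr and Nrf2 regulate, rose from 16.1 ± 14.02 to 283 ± 126 normalized counts (mean ± SD, n = 3 each, and log2 change 4.30 ± 0.57, adjusted p = 0.000682). Smaller rises were those of Ahrr, the repressor of the receptor, from 2274 ± 274 to 4874 ± 426 (log2 change 1.10 ± 0.20, adjusted p = 0.00332), and of Tiparp, an ADP-ribosyltransferase that restrains it, from 1252 ± 331 to 2399 ± 256 (log2 change 0.96 ± 0.20, adjusted p = 0.0072). The receptor gene itself went the other way. Ahr read 3071, 3203 and 5132 with FICZ and 8693, 8262 and 11356 without (log2 change -1.34 ± 0.38, adjusted p = 0.0355). Its call was lost without Jag1 replicate 1, 2 or 3 or Jag1/FICZ replicate 1 or 2 (adjusted p = 0.0695 to 0.128). Arnt, the partner of Ahr, and the conjugating enzymes Ugt1a7c and Ugt1a6a did not pass, with log2 fold changes of -0.16, -0.30 and -0.53.

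To show where the response element core could sit, windows of the Ahr list genes were searched for GCGTG on both strands. A window was the 250 bases before a RefSeq start. Printed are the windows with a match of genes called higher. These letters are the core bound by Ahr with Arnt and also 1 form of the core of hypoxia-inducible factors. Sequences are from RefSeq (GRCm38.p6, 5′ to 3′ along the gene), and capitals mark the core as read on the printed strand.
Cyp1a1 (chr9:57697363-57697612, plus strand): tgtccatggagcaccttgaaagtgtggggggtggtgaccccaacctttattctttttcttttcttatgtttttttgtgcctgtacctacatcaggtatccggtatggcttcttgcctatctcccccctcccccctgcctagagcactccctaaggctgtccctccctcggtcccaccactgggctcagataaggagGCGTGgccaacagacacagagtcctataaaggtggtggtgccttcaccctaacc
Cyp1b1 (chr17:79715062-79715311, minus strand): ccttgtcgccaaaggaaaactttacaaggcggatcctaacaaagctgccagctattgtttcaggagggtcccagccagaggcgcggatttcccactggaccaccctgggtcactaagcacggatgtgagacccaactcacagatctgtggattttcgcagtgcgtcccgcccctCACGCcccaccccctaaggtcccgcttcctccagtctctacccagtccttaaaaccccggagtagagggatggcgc
Ahrr (chr13:74292332-74292581, minus strand): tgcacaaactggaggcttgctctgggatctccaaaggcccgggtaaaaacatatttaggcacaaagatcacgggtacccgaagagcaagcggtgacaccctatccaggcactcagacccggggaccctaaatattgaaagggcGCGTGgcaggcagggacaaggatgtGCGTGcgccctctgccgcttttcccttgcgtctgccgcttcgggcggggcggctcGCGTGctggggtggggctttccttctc
Tiparp (chr3:65528197-65528446, plus strand): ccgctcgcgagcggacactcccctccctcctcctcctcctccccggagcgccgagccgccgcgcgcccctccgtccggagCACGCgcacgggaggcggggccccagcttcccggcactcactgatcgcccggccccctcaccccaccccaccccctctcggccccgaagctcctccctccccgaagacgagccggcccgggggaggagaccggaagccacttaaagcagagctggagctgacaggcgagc

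Cyp1a1 held 1 match, 54 bases before the start, and Cyp1b1 held 1 on the opposite strand at 76 bases. Ahrr held 3, at 107, 82 and 27 bases. Tiparp held 1 on the opposite strand at 170 bases, and the Nqo1 window held none. Arnt, which was not called, also held 1, at 29 bases, and the windows of Cyp1a2, Ugt1a6a and Ugt1a7c held none. Among genes with a window, the core was found in 30.9% of all genes, 48.5% of tested genes, 42.8% of those called higher and 46.3% of those called lower. Of the 100 genes with the largest called rises 78 had a window, and the core was found in 24.4% of these. A match is a description of the letters, and no match says only that they are not in this window.

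Outside the Ahr list, 4 of the 10 leading rises were in genes of granulocytes and mast cells. Elane (ENSMUSG00000020125, chromosome 10, 79722081 to 79724051, plus strand), neutrophil elastase, stood at 3050.1, 3694 and 2094 normalized counts with FICZ and at 9.07, 0 and 4.97 without (log2 change 9.52 ± 0.72, adjusted p = 3.15e-05). Cebpe (ENSMUSG00000052435, chromosome 14, 54947817 to 54949631, minus strand), the transcription factor of late granulocyte maturation, stood at 1079, 1386 and 1248 against 4.54, 6.25 and 9.89 (log2 change 7.34 ± 0.34, adjusted p = 1.44e-06). Both sets of samples are far apart, with every Jag1/FICZ sample above 1000 for these genes. The mast cell proteases Mcpt1 and Mcpt2 read 3659, 2542 and 1209 and 596, 335 and 179 with FICZ against 9.07, 19.8 and 4.96 and 0, 4.17 and 0 without it. Jag1/FICZ replicate 3 was the lowest of its group for both proteases.

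The other leading rises were of varied function. Akr1c18, which inactivates progesterone, reached 494, 699 and 999 from 0, 4.09 and 0 (log2 change 8.67 ± 0.67, adjusted p = 3.47e-05). Sgms2, a sphingomyelin synthase, reached 625, 485 and 685 from 0, 0.921 and 1.30 (log2 change 8.50 ± 0.86, adjusted p = 0.000154). Cd96, an immunoglobulin family receptor of T and NK cells, reached 332, 243 and 233 from 0, 0 and 2.95. Dnm3, a dynamin of membrane fission, and Lipg, endothelial lipase, rose by log2 fold changes of 7.21 and 7.08. Lin28a, an RNA-binding protein of fetal progenitors that blocks let-7 maturation, read 490.1, 313 and 198 against 1.57, 2.16 and 0.678.

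**Figure D2:**
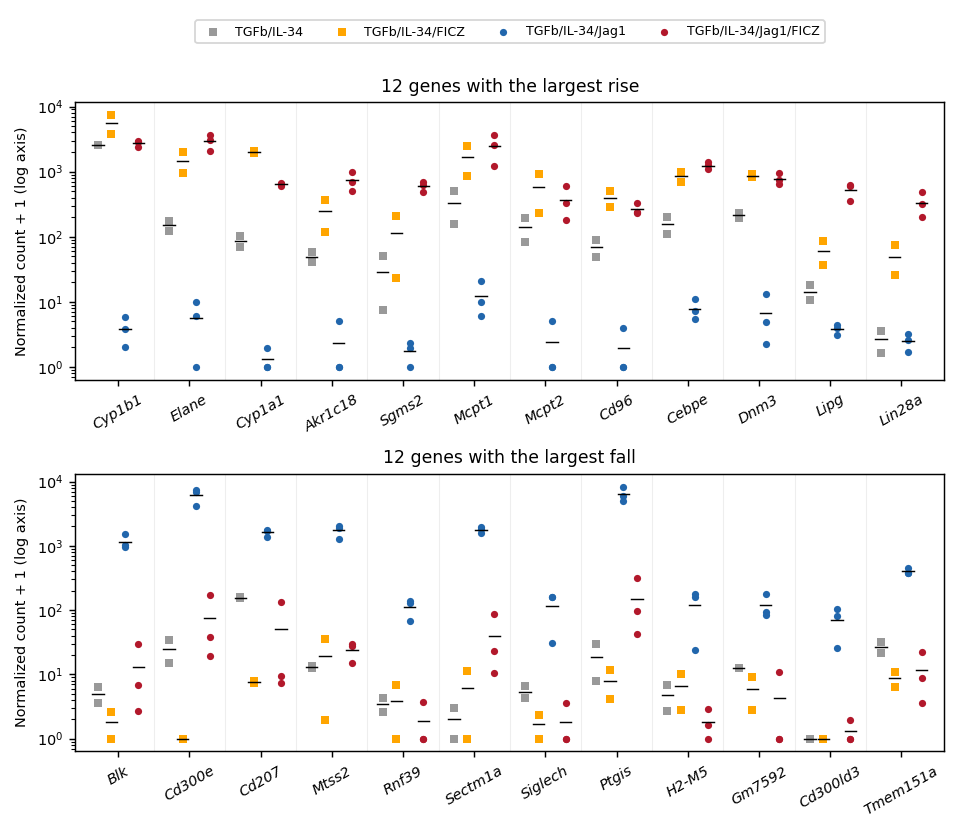
Normalized count + 1 on a log axis in each sample for the 12 genes with the largest rise (top) and the 12 with the largest fall (bottom) among genes called in Jag1/FICZ against Jag1. Points are samples of the 4 groups with TGFb and IL-34, and bars are group means. The genes were chosen so that the blue Jag1 points do not overlap the red Jag1/FICZ points, and for Cyp1b1, Elane and Cebpe the grey TGFb/IL-34 points lie above the blue ones.

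The granulocyte list rose nearly as a whole. Of 18 tested genes 16 were called higher (88.9%, against 10.9% of all tested genes) and none lower, with a median log2 fold change of 4.32. The list was chosen with earlier results of these data known, so this count is no separate evidence. Without the samples given FICZ 16 of the 18 would have reached the value filter. The summed list level was 1105 to 1672 normalized counts in Jag1 and 13704 to 18942 in Jag1/FICZ. Mmp8, neutrophil collagenase, rose from 2.98 ± 3.52 to 352 ± 33.4 and Ms4a3, a marker of granulocyte-monocyte progenitors, from 15.8 ± 12.9 to 774 ± 154 (log2 fold changes 6.92 and 6.15). The granule genes Prtn3 and Ngp rose from 92.8 ± 98.96 to 1787 ± 294 and from 59.6 ± 19.9 to 2995 ± 852. Mpo, myeloperoxidase of the first granules, was close to the floor in both groups (6.52 ± 4.94 without FICZ and 3.95 ± 0.293 with it), and Camp did not pass (adjusted p = 0.0569).

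The mast cell and basophil list gave 7 of 8 tested genes higher (median 4.27). Cpa3, a granule carboxypeptidase, rose from 114 ± 32.6 to 2897 ± 1056 (log2 change 4.62 ± 0.28, adjusted p = 8.57e-06) and Hdc, which makes histamine, from 65.8 ± 22.6 to 978 ± 93.4 (log2 change 3.92 ± 0.34, adjusted p = 6.45e-05). Gata2, a transcription factor of mast cells and progenitors, rose from 579 ± 71.7 to 5314 ± 521. Kit, the stem cell factor receptor, did not pass (1716 ± 698 without FICZ and 2036 ± 281 with it, adjusted p = 0.513). The other 6 genes of the list, among them Fcer1a, Mcpt4, Cma1 and Gata1, did not reach the value filter.

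Progenitor genes gave 9 of 13 higher and none lower (median 2.39), and 10 of the 13 reached the value filter without the samples given FICZ. Myb, a transcription factor of dividing progenitors, read 1182, 1160.1 and 972 with FICZ and 16.6, 26.96 and 10.1 without (log2 change 5.96 ± 0.47, adjusted p = 3.73e-05). Erg rose from 5.44 ± 2.66 to 264 ± 54.5. Flt3, the receptor of dendritic cell precursors, rose from 654 ± 227 to 3343 ± 639 (log2 change 2.39 ± 0.25, adjusted p = 0.000203) and Cd34 from 903 ± 135 to 2269.7 ± 386 (log2 change 1.33 ± 0.17, adjusted p = 0.000633). Meis1 and Hmga2 did not pass. With 1 library left out 6 to 8 were called.

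Markers of lymphoid, erythroid and platelet cells were also measured. The 5 tested lymphocyte genes of 10 summed to 13.1 to 30.9 normalized counts in Jag1 and 112.0 to 199 in Jag1/FICZ. Only 2 of the 5 reached the value filter without the samples given FICZ, so higher values among them were built in, and Cd79a and Cd3e did not reach the filter. Cd3g was at 0 in the Jag1 libraries and at 81.96, 13.9 and 64.3 with FICZ. The 4 tested erythroid and platelet genes of 9 summed to 525 to 572 and 4527 to 5762, nearly all from Itga2b, the platelet integrin that mast cells and progenitors carry too. Thy1 read 16084, 13020.3 and 12187 with FICZ and 177, 284 and 228 without (log2 change 5.92 ± 0.39, adjusted p = 1.42e-05). In cultures with no Jag1 it read 789.5 and 1185 in TGFb/IL-34 and 12178 and 3578 with FICZ. There the other 20 stromal genes summed to 279 to 287 and 316 to 479.

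Genes of cell division rose together. In the mitosis list 41 of 45 tested genes were called higher and none lower (median log2 fold change 2.35). The summed level was 12153 to 14747 normalized counts in Jag1 and 36576 to 36709 in Jag1/FICZ. Ccnb1, the cyclin of mitotic entry, read 872, 978 and 804 with FICZ and 40.8, 123 and 138 without (log2 change 3.30 ± 0.42, adjusted p = 0.000506). Mki67, the Ki-67 antigen of cycling cells, read 2979, 2802 and 3049 against 232, 448 and 616 (log2 change 2.88 ± 0.32, adjusted p = 0.00025). The kinetochore gene Spc25 and the kinesin Kif4 rose by 3.05 and 2.93 on the log2 scale. Cenpa, the centromeric histone, was the most abundant member and did not pass, at 4649 ± 2362 without FICZ and 2645 ± 359 with it (log2 fold change -0.71, adjusted p = 0.279), and Incenp and Espl1 did not pass either.

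S phase genes followed with smaller changes. Of 45 tested 30 were called higher and 1 lower (median 1.26), and 20 to 25 were called higher with 1 library left out, the fewest without Jag1/FICZ replicate 2. Rrm2, the regulated subunit of ribonucleotide reductase, rose from 171 ± 99.9 to 1271 ± 231 (log2 change 3.12 ± 0.50, adjusted p = 0.00188). The helicase subunit Mcm5 rose from 241 ± 138 to 1345 ± 140.3, and Mcm10 and Clspn by 2.58 and 2.51. The gene called lower was E2f2, and its call was lost without Jag1 replicate 1 or 3 or Jag1/FICZ replicate 1 or 2 (adjusted p = 0.126 to 0.18). Of the cell cycle entry list 5 of 18 were called higher, 8 with the replicate block and 2 without Jag1/FICZ replicate 2. Cdk6, a kinase of early G1, rose from 3511 ± 943 to 6510.3 ± 646 and Cdkn2b, its inhibitor, from 27.9 ± 14.7 to 129.9 ± 37.6. Cdkn1a, the p53 target that arrests the cycle, stood at 25903 ± 4718 without FICZ and 18842 ± 828 with it (adjusted p = 0.177).

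**Figure D3:**
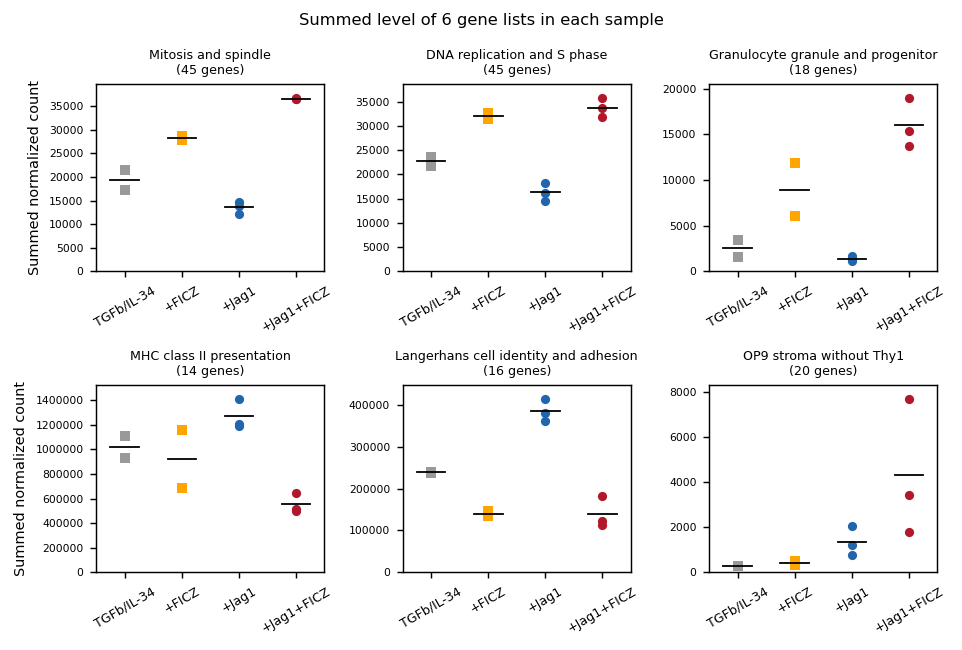
Summed normalized count of 6 gene lists in each sample of the 4 groups with TGFb and IL-34, each axis starting at 0, with bars at the group means. The mitosis sum lies at 12153 to 14747 in Jag1 and 36576 to 36709 in Jag1/FICZ, the MHC class II sum at 1188753 to 1409574 and 496026 to 646904, and the stromal sums without Thy1 overlap.

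Langerin and several other Langerhans cell genes fell. Of 16 tested genes in the identity and adhesion list 6 were called lower and 1 higher (median -0.50). The list was mixed, with log2 fold changes from -6.27 to 2.85 and 5 of the 16 genes above 0. Cd207 (ENSMUSG00000034783, chromosome 6, 83648190 to 83654839, minus strand) encodes langerin, the lectin that forms Birbeck granules. It read 8.39, 6.29 and 132 with FICZ and 1366, 1784 and 1699 without (log2 change -6.27 ± 0.88, adjusted p = 0.000908). Jag1/FICZ replicates 1 and 2 were near the floor, and replicate 3 kept a level of its own between them and the Jag1 samples. Cldn1, a tight junction protein through which Langerhans cells reach between keratinocytes, fell from 15062 ± 391 to 1510.5 ± 1036 (log2 change -3.54 ± 0.55, adjusted p = 0.00156). Lpar3, a lysophosphatidic acid receptor, fell from 991 ± 427 to 108 ± 66.3. Csf1r, the receptor of IL-34, read 5106, 3901 and 8828 against 13200.0, 21274 and 31394 (log2 change -1.88 ± 0.37, adjusted p = 0.00583). Mfge8, which bridges phagocytes to dying cells, was 1 of the most abundant transcripts and fell from 266443 ± 8265 to 61353 ± 28401 (log2 change -2.22 ± 0.30, adjusted p = 0.000804). Runx3, Id2 and Cdh1 did not pass (adjusted p = 0.0718, 0.142 and 0.354).

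Genes of MHC class II presentation also went down. Of its 14 genes 8 were called lower, none higher, and all 14 had a log2 fold change below 0 (median -0.99). With the replicate block 12 were called lower, and without Jag1/FICZ replicate 2 there were 5. H2-Ab1 (ENSMUSG00000073421, chromosome 17, 34476663 to 34488393, plus strand), a beta chain of the presenting molecule, read 73968, 73804 and 108347 with FICZ and 248595, 256212 and 301740.0 without (log2 change -1.67 ± 0.26, adjusted p = 0.00156). H2-Eb1 fell from 219147 ± 18242 to 73421 ± 15744 and H2-Aa from 182677 ± 13761 to 83931 ± 12119. H2-Ob, a chain of the inhibitor of peptide loading, had the largest drop (log2 change -2.18 ± 0.20, adjusted p = 9.88e-05). Cd74, the invariant chain, stood at 493503 ± 45400.1 without FICZ and 255656 ± 28502 with it (adjusted p = 0.067), and Ciita, the master regulator of the pathway, at 23729 ± 9346 without FICZ and 8469.5 ± 2129 with it (adjusted p = 0.0518). Neither passed.

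The steepest falls were of surface receptors, kinases and enzymes. Blk (ENSMUSG00000014453, chromosome 14, 63610285 to 63654587, minus strand), a Src family kinase best known from B cells, read 1.71, 5.75 and 28.5 with FICZ and 1520.1, 1033 and 948 without (log2 change -7.13 ± 0.78, adjusted p = 0.000237). Cd300e (ENSMUSG00000048498, chromosome 11, 114942743 to 114957500, minus strand), an activating receptor of non-classical monocytes, read 18.6, 37.6 and 171 against 4232, 6841 and 7493 (log2 change -6.89 ± 0.68, adjusted p = 0.000138). Ptgis, prostacyclin synthase, read 96.3, 41.5 and 309 against 5054, 6007 and 8307 (log2 change -5.86 ± 0.73, adjusted p = 0.000471). In these 3 genes Jag1/FICZ replicate 3 was the highest of its group, as for Cd207, and still below every Jag1 sample. Mtss2, a membrane-bending protein, and Sectm1a, a secreted ligand of T cells, fell from 1742 ± 406 to 22.9 ± 7.93 and from 1792 ± 196 to 39.2 ± 41.04. Tmem151a fell from 406 ± 42.7 to 10.6 ± 9.65. Rnf39, Siglech, H2-M5, Gm7592 and Cd300ld3 completed the 12 largest falls, at means of 69.9 to 119.9 normalized counts in Jag1 and 0.310 to 3.35 in Jag1/FICZ.

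Related receptors moved in both directions. All 8 tested CD300 genes passed, 5 lower and 3 higher, and the activating Cd300c2 fell from 2371 ± 499.8 to 190.2 ± 71.4 while the inhibitory Cd300a rose from 873 ± 42.2 to 1374 ± 80.4. Of 9 Src family kinase genes Blk, Lyn and Fyn were lower and Lck higher, and the Lck call was lost without Jag1 replicate 1 or Jag1/FICZ replicate 1 or 2 (adjusted p = 0.058 to 0.083). C-type lectins gave 5 lower and 4 higher of 15, and 8 lower with the replicate block. Mgl2 and Clec10a, galactose lectins of dermal dendritic cells, fell from 10741 ± 1404 to 780.3 ± 478 and from 919 ± 186 to 102 ± 57.98. Clec12a, an inhibitory lectin of granulocytes and monocytes, rose from 274 ± 122 to 2192 ± 421 (log2 change 3.09 ± 0.33, adjusted p = 0.000202).

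Macrophage genes split. Of 16 tested 6 were called lower and 3 higher (median -1.02). The complement genes C1qa, C1qb and C1qc fell from 6027 ± 2927 to 658 ± 396, from 5171 ± 1916 to 599 ± 257 and from 6366 ± 2156 to 562 ± 307. Mertk, a receptor for dying cells, fell from 552 ± 98.2 to 88.2 ± 6.13. In contrast Apoe, the lipid carrier, rose from 271 ± 236 to 2135 ± 624 (log2 change 3.28 ± 0.62, adjusted p = 0.00461), Gpnmb from 684 ± 156 to 6411 ± 1590.5 and the endosomal protein Cd68 from 293 ± 42.9 to 1174 ± 105. Adgre1, which encodes F4/80, did not pass (7364 ± 1218 without FICZ and 9447 ± 1221 with it). Of the apoptotic cell uptake genes Tyro3 fell as well, from 759 ± 120.1 to 127 ± 14.1, and Olr1, the receptor of oxidized LDL, rose from 62.9 ± 26.1 to 461 ± 146.

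Monocyte genes rose in 8 and fell in 4 of 19 tested (median 1.20). Ly6c2 and Plac8, genes of classical monocytes, rose from 17.9 ± 4.86 to 715 ± 151 and from 83.9 ± 33.01 to 3114 ± 293 (log2 fold changes 5.25 and 5.28). Lyz2 rose from 563 ± 322 to 1948 ± 556. S100a4 fell from 16396 ± 3456 to 3858 ± 491 (log2 change -2.07 ± 0.38, adjusted p = 0.00395). The lower count was 2 without Jag1 replicate 1 or 3 or without Jag1/FICZ replicate 1 or 2.

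**Figure D4:**
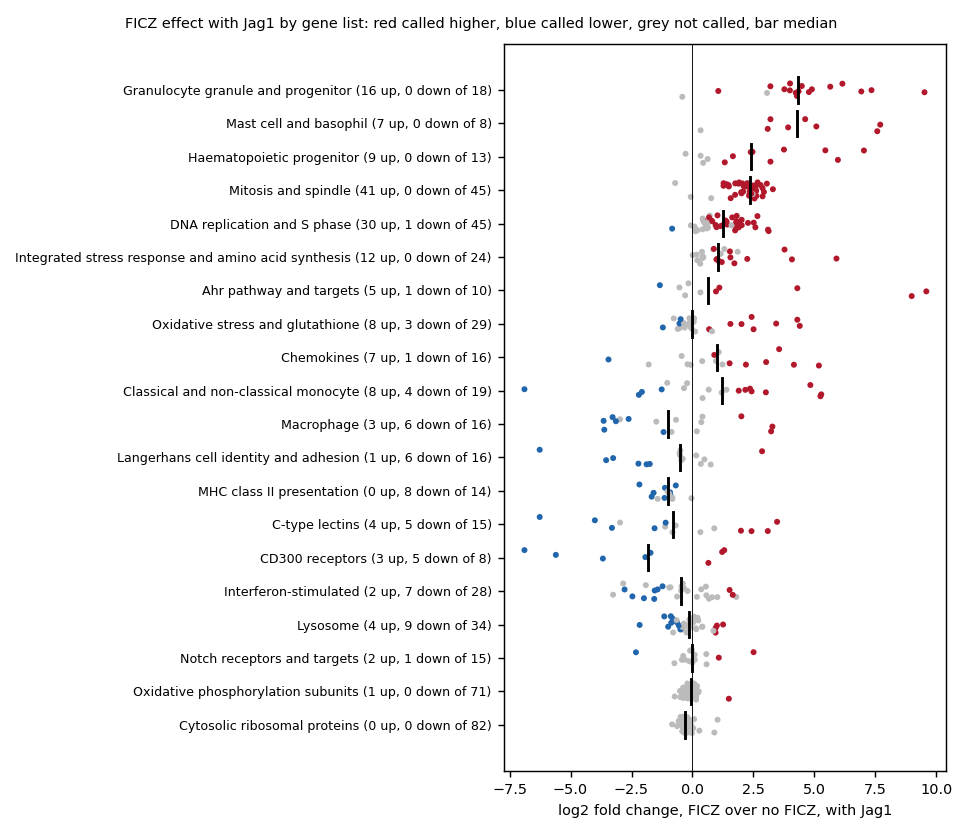
Log2 fold change with FICZ in Jag1 cultures for the genes of 20 lists, 1 point per tested gene, with the list median as a black bar. Granulocyte, mast cell, progenitor, mitosis and S phase lists lie to the right with mostly red points, and MHC class II lies to the left. Oxidative phosphorylation and ribosomal protein genes are almost all grey, with medians of -0.08 and -0.30.

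Chemokines rose in 7 and fell in 1 of 16 (median 1.02). Ccl9 and Ccl6, which attract monocytes and granulocytes through Ccr1, rose from 124 ± 65.8 to 4182 ± 486 and from 301 ± 169 to 3325 ± 1299 (log2 change 5.19 ± 0.39, adjusted p = 2.98e-05 for Ccl9). Ccl3 rose from 14.9 ± 14.5 to 207 ± 12.3 and Ccl4 from 20.9 ± 2.44 to 182 ± 60.7. Ccl17, a ligand of Ccr4 made by migrating dendritic cells, rose from 2126 ± 448 to 9629.9 ± 1085 (log2 change 2.19 ± 0.20, adjusted p = 8.41e-05). Ccl22, the other Ccr4 ligand, read 142937, 153924 and 128410.0 against 86317, 89709.6 and 56559 (log2 change 0.90 ± 0.25, adjusted p = 0.034). The Ccl22 call was lost without Jag1 replicate 1 or 3 or Jag1/FICZ replicate 1, 2 or 3 (adjusted p = 0.0546 to 0.134). Among chemokine receptors Cxcr2 and Cxcr4 rose from 36.9 ± 7.79 to 311 ± 37.4 and from 784 ± 235 to 2527 ± 89.3. Ccr7, the receptor for migration to lymph nodes, and Fscn1 did not pass (adjusted p = 0.0923 and 0.0545).

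Of 15 tested cytokines 5 were higher and 1 lower. Il1rn, the antagonist of interleukin-1, rose from 974 ± 428 to 3699.9 ± 962, Il6 from 379.5 ± 103 to 1056 ± 48.9 and Csf1 from 89.3 ± 54.00 to 374 ± 79.2, while Il1a fell from 347 ± 43.8 to 101 ± 25.6. Il1b did not pass (10891 ± 4261 without FICZ and 6607 ± 2589.8 with it). Interferon-stimulated genes gave 7 lower and 2 higher of 28 (median -0.46), a count of 12 lower with the replicate block and of 3 without Jag1/FICZ replicate 1 or Jag1 replicate 3. Irf7 fell from 274 ± 179.6 to 43.7 ± 15.3 and Oas1a from 475 ± 271 to 103 ± 11.1, and Gbp2 rose from 1120.5 ± 268 to 3476 ± 509. Bst2 did not pass.

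Adhesion and nucleotide receptors rose more often than they fell, as did all tested genes (1433 higher and 879 lower). Of 17 integrin genes 6 were higher and 1 lower, with Itga1, the collagen-binding chain, going from 366 ± 178 to 3704 ± 779 and Itgb7, a gut-homing and mast cell chain, from 504 ± 268 to 3673 ± 556. Of 18 purinergic genes 5 were higher, 8 with the replicate block. Nt5e, the ectoenzyme CD73 that makes adenosine, read 2599, 2313 and 2622 with FICZ and 76.01, 107 and 99.6 without (log2 change 4.73 ± 0.21, adjusted p = 1.1e-06), and P2rx7, an ATP-gated channel, rose from 13.03 ± 14.7 to 234 ± 35.6. P2ry6, a receptor for UDP, fell from 673 ± 339 to 120.2 ± 70.1.

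Several metabolic pathways changed. The integrated stress response and amino acid list gave 12 of 24 genes higher and none lower, with all 24 above 0 (median 1.05). With 1 library left out 8 to 11 were called. Phgdh and Psat1, consecutive enzymes of serine synthesis, rose from 87.3 ± 18.8 to 1221 ± 321 and from 130.4 ± 20.9 to 2208 ± 168 (log2 change 4.08 ± 0.19, adjusted p = 1.6e-06 for Psat1). Pycr1, the last step of proline synthesis, read 440.4, 383 and 480.5 with FICZ and 8.85, 20.3 and 0.808 without (log2 change 5.91 ± 0.72, adjusted p = 0.000435). Aldh1l2 also passed, and the amino acid transporters Slc7a5 and Slc3a2 did not.

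Cyp11a1, which cleaves the side chain of cholesterol in the first step of steroid synthesis, read 5082, 5428 and 4237 against 125, 145 and 86.3 (log2 change 5.38 ± 0.22, adjusted p = 8.66e-07). With Akr1c18 and Akr1c13 it was among 4 higher and 3 lower of 14 steroid genes. Of 18 eicosanoid genes 6 were higher and 2 lower. Pla2g7, which inactivates platelet-activating factor, rose from 658 ± 90.4 to 6156 ± 984, and Hpgds, prostaglandin D synthase, fell from 2874 ± 1237 to 797 ± 133. Alox5 and Lta4h, which act in sequence to make leukotriene B4, rose from 8953 ± 1167 to 16339 ± 831 and from 2567 ± 507 to 6137 ± 530.5. Of 19 lipid handling genes 3 were higher and 4 lower (15.8% and 21.1%, against 10.9% and 6.71% of all tested genes). Their median was 0.10, with log2 fold changes from -2.58 to 3.28. Plin2, the coat of lipid droplets, had the largest fall, from 7706 ± 1652 to 1281 ± 180.4 (log2 change -2.58 ± 0.18, adjusted p = 2.13e-05).

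Oxidative stress genes gave 8 higher and 3 lower of 29 (median -0.02), and 8 lower with the replicate block. Mgst2 and Gstm2, glutathione transferases, rose from 20.1 ± 9.29 to 419 ± 109.5 and from 15.4 ± 3.46 to 174 ± 2.57. Nfe2l2, the gene of Nrf2, fell from 4580.0 ± 1029.7 to 1968 ± 377 (log2 change -1.21 ± 0.20, adjusted p = 0.00199), while the transcripts of the peroxidases Gpx1 and Gpx4 gave log2 fold changes of 0.01 and 0.07 and did not pass. Lysosome genes gave 9 lower and 4 higher of 34, 15 lower with the block and 5 without Jag1/FICZ replicate 1, Jag1 replicate 2 or Jag1 replicate 3. Ctsb, a cysteine protease, fell from 17647 ± 117 to 7931 ± 567 and Lgmn, another, rose from 2414 ± 134 to 5781 ± 562.

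Central energy metabolism showed few calls. Of 71 oxidative phosphorylation genes 1 was called (Ndufa4, higher; median of the list -0.08), and of 21 genes of the tricarboxylic acid cycle 1 (Pdha1, lower, and 5 lower with the replicate block). The Pdha1 call was lost without Jag1 replicate 1, 2 or 3 or Jag1/FICZ replicate 1, 2 or 3 (adjusted p = 0.0608 to 0.189). None of 82 cytosolic ribosomal protein genes was called (median -0.30), but only 6 had a log2 fold change above 0, against 6460 of all 13095 genes. Their sum was 1490766 to 1751638 normalized counts in Jag1 and 1261768 to 1372609 in Jag1/FICZ, with no overlap. The fit took its spread from all 11 samples, among them TGFb/IL-34/FICZ replicate 1 with a sum of 3650373. Hk3, a hexokinase of granulocytes and monocytes, rose from 171 ± 96.2 to 1080.2 ± 204, one of 4 calls among 29 glycolysis genes. Of these 3 were higher and 1 lower (10.3% and 3.45%, against 10.9% and 6.71% of all tested genes).

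In the Notch list 13.3% of genes were called higher and 6.67% lower, against 10.9% and 6.71% of all genes. Notch1, a receptor of Jag1, read 5501, 5017 and 4396 with FICZ and 881, 625 and 1196 without (log2 change 2.51 ± 0.26, adjusted p = 0.000176), and it was 1 of 2 higher genes of 15 in the Notch list. The other, the feedback inhibitor Nrarp, rose from 73.4 ± 23.2 to 153 ± 33.9, but lost its call without Jag1 replicate 1 or 3 or Jag1/FICZ replicate 1, 2 or 3 (adjusted p = 0.0511 to 0.172). Maml2, a coactivator, fell from 422 ± 143 to 86.9 ± 35.8. Notch2 and Rbpj, the DNA-binding partner, did not pass, and Hes1, Hey2 and Heyl did not reach the filter. Of 15 TGFb pathway genes Tgfb1 and Smad6 were higher (13.3%, against 10.9% of all genes). Neither kept its call in all 6 fits with 1 library left out. Csf2rb and Csf2ra, receptor chains of GM-CSF, did not pass (adjusted p = 0.354 and 0.704).

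Of 45 myeloid transcription factors 6 were higher and 8 lower (14 and 12 with the replicate block, 3 lower without Jag1/FICZ replicate 1 or 2). These were 13.3% and 17.8%, against 10.9% and 6.71% of all tested genes. Beside Cebpe and Myb, Gfi1, a transcriptional repressor that acts in granulocyte commitment, rose from 4.24 ± 4.05 to 77.02 ± 41.5 and Egr3 from 90.7 ± 25.5 to 469 ± 125. Bcl6 and Cebpd fell from 2532 ± 66.5 to 1281 ± 142 and from 1186 ± 241 to 408 ± 86.9. Irf8, a factor of monocytes and dendritic cells, did not pass (27618 ± 4558 without FICZ and 38936 ± 1013 with it).

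By size of the change in normalized counts, the largest falls came from highly expressed genes. Fth1 (ENSMUSG00000024661, chromosome 19, 9957911 to 9962462, plus strand), ferritin heavy chain, read 76701, 59984 and 106582 with FICZ and 516732, 322672 and 365331 without (log2 change -2.32 ± 0.38, adjusted p = 0.00225). Lgals3, galectin-3, fell from 53169 ± 5829.8 to 15618 ± 5657, Plet1 from 44088 ± 5747 to 20453 ± 3406 and Socs3, an inhibitor of cytokine signals, from 28226 ± 2955 to 8174 ± 2167. Ftl1, the light chain of ferritin and a gene picked here after its values were seen, stood at 147269 ± 51875 without FICZ and 109206 ± 4894 with it (adjusted p = 0.624). Among the largest rises by this measure were Scin, an actin-severing protein, from 3613 ± 1146 to 31038 ± 4679 (log2 change 3.14 ± 0.27, adjusted p = 6.12e-05), and Thbs1, thrombospondin, from 2283 ± 695 to 24363 ± 4987 (log2 change 3.44 ± 0.27, adjusted p = 4e-05). Ifitm1 rose from 25081 ± 7647 to 77295 ± 4493. Myh9, Tmem123, Tnfrsf9 and Ccnd2 were also among them, with log2 fold changes of 0.91, 0.80, 0.97 and 0.88. Their calls were lost when single libraries were left out, Myh9 without Jag1/FICZ replicate 1 or 2 (adjusted p = 0.0559 to 0.0575), Tmem123 without Jag1 replicate 1, 2 or 3 or Jag1/FICZ replicate 1, 2 or 3 (adjusted p = 0.079 to 0.154), Tnfrsf9 without Jag1 replicate 2 or 3 or Jag1/FICZ replicate 1, 2 or 3 (adjusted p = 0.0524 to 0.0985) and Ccnd2 without Jag1 replicate 1, 2 or 3 or Jag1/FICZ replicate 1, 2 or 3 (adjusted p = 0.0555 to 0.112).

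The same genes were then read in the cultures that had no Jag1, which share no sample with the comparison above. Without Jag1, 3 genes passed for FICZ (0.0229% of those tested; limma, adjusted p of 0.05, and 2284 at an unadjusted p of 0.05), with 2 samples in each group. The count was 5718 without TGFb/IL-34/FICZ replicate 2 and 0 without any 1 of the other 3 libraries (785 to 891 at an unadjusted p of 0.05). TGFb/IL-34/FICZ replicate 1, labelled with another flow cell than the other 3, stood apart, with 3650373 normalized counts of cytosolic ribosomal protein genes against 1276730 in replicate 2 and 1108821 to 1214849 in TGFb/IL-34. They were Cyp1a1, Cyp11a1 and Myrf, with log2 fold changes of 4.59, 2.27 and -2.45. Of the 2312 genes called with Jag1, 1773 (76.7%) had the same sign without it. This share was 66.3% without TGFb/IL-34/FICZ replicate 2 and 87.9% without TGFb/IL-34/FICZ replicate 1. Of the genes called higher with Jag1 75.4% lay above 0, against 48.4% of all tested genes, and of those called lower 78.7% lay below 0, against 51.3%. Their medians without Jag1 were 0.43 and -0.41. These genes were called with Jag1, so a smaller median elsewhere does not compare the sizes of both effects.

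The interaction test asks whether the effect of FICZ differed between cultures with and without Jag1. Jag1 was supplied by OP9 cells, and whether cultures without it held stroma is not clear, so ligand and stroma cannot be told apart. Without Jag1, the samples with and without FICZ did not carry the same set of experiment codes either. The test gave 182 genes (1.39% of those tested), 153 with a more positive effect in the presence of Jag1 and 29 with a more negative one (limma, adjusted p of 0.05). Of them 181 were also called with Jag1. Cyp1b1 rose in Jag1 cultures by 9.59 and stood 1.04 higher without Jag1, where it was not called, on the log2 scale (interaction 8.55 ± 0.58 (SE), adjusted p = 0.00048). The difference for Cebpe was 4.86 ± 0.53 (SE), adjusted p = 0.00562. Cd207 and Cd300e fell steeply with Jag1 and had log2 fold changes of -4.37 and -4.52 without it. Neither was called without Jag1 (limma, adjusted p = 0.26 and 0.135), and the interaction did not pass (adjusted p = 0.436 and 0.268). Cd300e read only 33.3 and 14.2 in TGFb/IL-34 and 0 and 0 in TGFb/IL-34/FICZ. Cd207 read 157 and 154 and then 6.90 and 6.21. Values this near the floor limit the size of a fall, so these interactions do not show equal effects. The interaction count ranged from 9 without TGFb/IL-34 replicate 2 to 5488 without TGFb/IL-34/FICZ replicate 2. It was also 19, 28 and 39 without Jag1/FICZ replicates 2, 1 and 3, and 29 without TGFb/IL-34 replicate 1, and 66 to 122 without any other library.

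**Figure D5:**
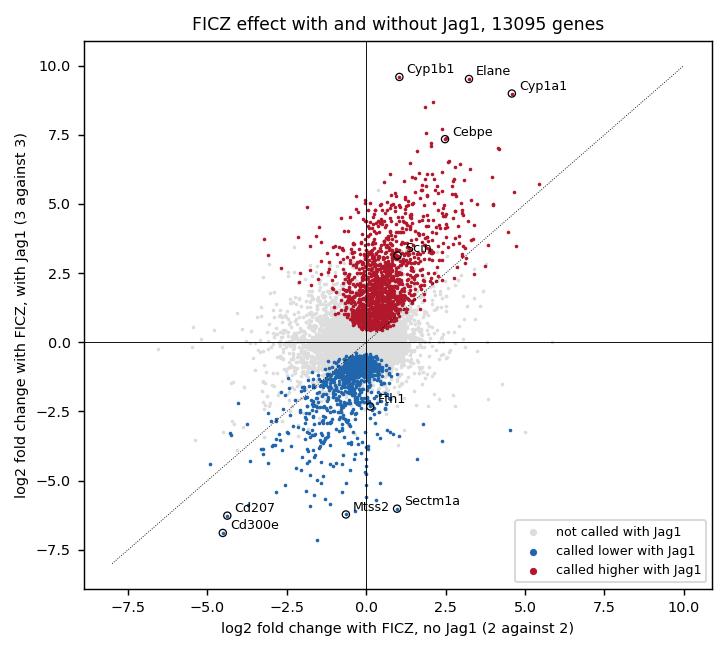
Log2 fold change with FICZ in cultures with Jag1 (vertical, 3 against 3 samples) and without Jag1 (horizontal, 2 against 2) for 13095 genes, with the dotted line marking equal effects. Genes called higher with Jag1 (red) lie mostly to the right of 0 and those called lower (blue) mostly to the left, 76.7% with the same sign, and Cyp1b1 and Sectm1a lie close to 0 on the horizontal axis compared with the vertical one.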

How the data were processed

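RNA was sequenced from sorted cells of 11 cultures in 5 groups. The authors quantified reads with salmon against Ensembl GRCm39, joined transcripts into genes by tximport, applied DESeq2 scaling and deposited a normalized signal per gene (normalized counts). Versions are not given in the sources used here. Low values were whole multiples of 1 read in 52.3% to 57.8% of cases over all genes (within 0.1 steps), so no count model was run. An estimated 20.6 to 23.9 M reads lay behind each of the 6 samples.

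Genes with a value of 10 or more in 2 or more samples were tested on log2(value + 1). The limma package (3.58.1, R 4.3.3; lmFit, contrasts.fit, eBayes with trend) fitted 1 mean per group over all 11 samples, no covariate, 6 residual degrees of freedom, two-sided, with Benjamini-Hochberg adjustment and a threshold of 0.05. Replicate numbers pair the Jag1 and Jag1/FICZ samples by experiment code (deviations from the group means correlated at 0.153, 0.122 and 0.166 for the same number and at -0.126 to -0.0255 for other pairs), and the paired fit was an alternative. Unless another fit is named, p-values of single genes are from the unpaired fit. It called 2312 genes, against 4171 in the paired fit, so a gene said not to pass can pass when paired. Other alternatives were pseudocounts of 0.5 and 4, filters, quantile and total scaling, blocks, array weights and leaving out each replicate. The script was tested on simulated data.

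Named genes were the 12 per direction with the largest fold change and the 8 with the largest difference of means, among called genes with a mean of at least 50 and no overlap, and genes of lists (up to 4 called with the largest change and up to 3 not called with the highest mean, or fewer). Members and lists were chosen with earlier results of these data known. Coordinates are from GENCODE vM39 (GRCm39), to which 21676 genes matched. Of the table's genes 50 had no symbol. The authors' sample sheet was not used. Some genes of the lists are counted but not reported here by name.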

Additional observations from a re-analysis of the deposited data

Results flagged for a closer look

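For 13 of the 40 genes chosen for the largest changes with Jag1, a choice that favours a difference (182 of all 13095 genes passed), the effect of FICZ differed between cultures with and without Jag1 in the interaction term (limma, Benjamini-Hochberg), which is the difference of the log2 fold changes, with minus without Jag1. It was 8.55 ± 0.58 (SE), adjusted p = 0.00048 for Cyp1b1. It was 4.41 ± 0.55 (SE), adjusted p = 0.0082 for Cyp1a1, the one of these genes called in both settings. The progenitor and granule genes Elane, Mcpt1 and Cebpe had differences of 6.28, 5.30 and 4.86. Akr1c18, Sgms2, Dnm3, Lipg and Cd96 had differences of 6.57, 6.66, 5.18, 5.05 and 4.88. In all these genes the Jag1 samples were the lowest of the 4 groups with TGFb and IL-34. Scin and Thbs1 differed by 2.15 and 2.14. Cd300ld3 differed by -5.60, and it was listed at 0 in all 4 libraries without Jag1. Against it stood means of 69.9 in Jag1 and 0.310 in Jag1/FICZ. Adjusted p was 0.00048 to 0.049 over the 13 genes.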

How the results depend on the processing

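The count of genes called with Jag1 (2312) was 2125 to 2444 with other pseudocounts, filters, scalings or a block by experiment code or flow cell. It rose to 3598 (1594 lower) in a fit of only the 6 samples, to 4171 (2258 higher, 1913 lower) with the replicate block in those samples and to 4123 (2299 higher, 1824 lower) with array weights. With 1 library left out it was 1387 to 1821 (933 to 1211 higher, 454 to 679 lower). With a minimum of 2-fold 554 lower genes were left. Beyond the counts given beside the results, the replicate block ended 1 call among the 353 named or listed genes called (Igf2bp1, adjusted p = 0.0559). The count without Jag1 (3) was 5 after quantile normalization and 0 with the replicate block (616 at an unadjusted p of 0.05), where the numbers join different experiment codes. With 1 library left out it was 0 to 5718, the highest without TGFb/IL-34/FICZ replicate 2 and 0 in the other 3 fits (785 to 891 at an unadjusted p of 0.05), where the lone sample of a group is assumed to vary like the others. The interaction count (182) was 74 with no filter and 9 to 5488 with 1 library left out. None of the 1000 named or listed genes that was called reversed, 247 of 353 calls held in every alternative, and 212 uncalled genes passed in at least 1. The median over all genes was -0.07 with quantile normalization and 0.07 with scaling to the total. The cause of these changes was not tested. With 3 samples a group, changes of low genes and of 2-fold are the least certain. In simulated data 6 of 100 genes changed 2-fold and 96 of 100 changed 4-fold were recovered (12879 genes). Only genes with a mean of at least 50 were changed there, so low genes were not tried. Far fewer genes changed there than were called here, so these shares do not give the power in these data.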

Other observations

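Further gene groups with TGFb/IL-34/Jag1/FICZ against TGFb/IL-34/Jag1 were less uniform. Among all tested genes 10.9% were called higher and 6.71% lower. Of 20 genes of dendritic cell maturation and migration 4 were called higher and 1 lower (9 higher with the replicate block, 2 without Jag1/FICZ replicate 2). Cacnb3, a calcium channel subunit of mature dendritic cells, rose from 7729.6 ± 3915 to 21245 ± 3276 (mean ± SD, n = 3 each, and log2 change 1.57 ± 0.30, adjusted p = 0.00529). Of 13 conventional dendritic cell genes 3 were higher and 2 lower, and Clec4a4, an inhibitory lectin, rose from 17.9 ± 17.4 to 127 ± 17.3. Of 10 tested MS4A genes 5 were higher and none lower, 3 higher without Jag1/FICZ replicate 2. Ms4a4c rose from 3.94 ± 3.51 to 61.7 ± 32.1. Of 17 Toll-like receptor genes 3 were higher (5 with the block). Tlr12 rose from 10.9 ± 11.1 to 87.6 ± 29.7, and Tlr9 and Myd88 did not pass (adjusted p = 0.905 and 0.871).

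Of 17 complement genes 3 were higher and 3 lower, and Cd55, which protects cells from complement, rose from 3.01 ± 3.67 to 211 ± 117 (log2 change 6.07 ± 0.71, adjusted p = 0.000336). Of 8 Fc receptor genes 3 were higher and 1 lower. Fcgr2b, the inhibitory receptor, rose from 679 ± 140.2 to 1533 ± 144, and Fcgrt, which recycles IgG, fell from 2654 ± 278 to 888 ± 223. Of 18 apoptosis regulators 2 were higher (8 with the block), 11.1% against 10.9% of all tested genes. Of 12 metalloproteinase genes 3 were higher and 2 lower. Of 31 ribosome biogenesis genes 5 were higher and 1 lower, and 1 to 6 were higher with 1 library left out, the fewest without Jag1/FICZ replicate 1. Nop56 rose from 769 ± 126 to 1776 ± 202. Of 15 fatty acid synthesis genes 1 was higher and 2 lower (6.67% and 13.3%). Of 18 endoplasmic reticulum chaperones 2 were higher and 1 lower (11.1% and 5.56%, against 10.9% and 6.71% of all tested genes). With 1 library left out 0 to 1 fatty acid genes were lower, and 0 to 1 chaperones were called in each direction. The 1 tested adipocyte gene (Plin4) and the 1 tested keratinocyte gene (Krt10) did not pass.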
